A study of Mus musculus with 6 samples.

Results

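Residence in a tissue and departure from it are governed by a small set of adhesion molecules, chemokine receptors and regulators, and 9 of their genes were followed through the lymphocytes of mouse colon tumours: Itga1, Itgae, Cd69, Cxcr6, Cdh1, Itgb7, Klf2, S1pr1 and Ccr7. They were chosen by name from the 32285 genes in the deposited matrices. All 9 were found by symbol. Tumours came from 2 genotypes, SOX17KO, which by its name lacks the transcription factor SOX17, and Control. Each genotype was sequenced in 3 collections: at 1 week, at 2 weeks, and in a pair of libraries without a time in its labels, called the untimed pair. The labels give neither the age nor the strain of the mice, the cell in which Sox17 was lost, nor the event from which weeks are counted. Tumours of 5 mice were pooled per condition according to the series description, so a library is a pool and not a mouse. Viable cells with the leukocyte antigen CD45 and without the epithelial antigen EpCAM had been sorted. Each of the 6 libraries was the only one of its genotype and collection.

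T cells that settle in epithelium carry the integrin pair of Itgae (CD103) and Itgb7, which binds E-cadherin, the product of Cdh1. Itga1 (CD49a) gives a collagen receptor, and Cxcr6 is the receptor of the chemokine CXCL16. Departure uses S1pr1, the receptor that guides lymphocytes along sphingosine 1-phosphate into lymph, and Ccr7, which guides them towards CCL19 and CCL21. The transcription factor KLF2 drives S1pr1, whereas CD69 binds the S1PR1 protein and removes it from the surface.

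Promoter sequence was held for 4 of the 9 genes in the RefSeq-derived table used here (build GRCm38.p6). The 3 shown belong to genes that differed between T cells with and without S1pr1, Klf2 in one direction and Cxcr6 and Itga1 in the other. Each run is written 5′ to 3′ on the strand of its gene and covers 220 bases that end 31 bases before the RefSeq transcript start, which can differ from the gene starts of the GENCODE annotation given after them. Capitals mark matches on either strand to CCNCNCCC, the box bound by Krüppel-like factors, and overlapping matches are counted separately.
Klf2, chr8:72318812-72319031, plus strand: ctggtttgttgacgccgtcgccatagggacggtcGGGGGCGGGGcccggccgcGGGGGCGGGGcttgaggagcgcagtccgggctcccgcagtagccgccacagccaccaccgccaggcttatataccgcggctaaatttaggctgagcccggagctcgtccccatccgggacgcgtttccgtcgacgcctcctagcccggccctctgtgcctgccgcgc
Cxcr6, chr9:123806227-123806446, plus strand: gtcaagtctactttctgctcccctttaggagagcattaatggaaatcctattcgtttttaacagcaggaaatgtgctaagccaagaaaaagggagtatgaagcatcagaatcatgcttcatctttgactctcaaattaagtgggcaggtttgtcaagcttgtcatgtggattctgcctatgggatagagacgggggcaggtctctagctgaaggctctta
Itga1, chr13:115101995-115102214, minus strand: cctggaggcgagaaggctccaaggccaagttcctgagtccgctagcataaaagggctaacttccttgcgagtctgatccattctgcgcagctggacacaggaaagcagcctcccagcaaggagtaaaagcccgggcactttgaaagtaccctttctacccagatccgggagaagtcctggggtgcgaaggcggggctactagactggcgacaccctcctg
The Klf2 window held 4 matches in a pair of identical boxes and had a GC content of 71.4%. The window of Itgb7, the other one in the table, held 1 match and is not shown. The windows of Cxcr6 and Itga1 held 0 matches and had a GC content of 43.6% and 57.7%. Of 32851 windows of the same kind, 41.0% held at least 1 match. TGTGGT, the core of the Runt box, and AGGTGTGA, a T-box, were in none of the 3 windows and in 12.7% and 0.995% of all windows. A match is a run of letters and not a shown binding site.

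On mm10 the 9 protein-coding genes lay at chr13:114953096-115101964 on the minus strand (Itga1), chr11:73090583-73147446 on the plus strand (Itgae), chr6:129267325-129275436 on the minus strand (Cd69), chr9:123806475-123811760 on the plus strand (Cxcr6) and chr8:106603351-106670246 on the plus strand (Cdh1). Itgb7 lay at chr15:102215995-102231944 on the minus strand, Klf2 at chr8:72319033-72321656 on the plus strand, S1pr1 at chr3:115710433-115715072 on the minus strand and Ccr7 at chr11:99144196-99155077 on the minus strand. The span of Itga1 contains Pelo on the same strand, so that reads from the overlap could be shared between them. Haspin lies within Itgae and Fyco1 overlaps Cxcr6, both on the opposite strand.

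Filters kept 32201 of 34607 cell barcodes. A library held 2937 to 6871 of these cells, and the median cell 3012 to 5896 unique molecular identifiers (UMIs, each 1 captured RNA molecule). Libraries shared 4 to 13 barcodes per pair of libraries. Cells were sorted into classes by UMIs of lineage markers, none of them one of the 9 genes. Cd3e reached 381 CPM (UMIs scaled to a class total of 1e+06) in T cells and 0 in NK cells, and Ncr1 reached 658 CPM in NK cells and 58.4 CPM in T cells. The gates themselves require Cd3 UMIs in T cells, and Ncr1 but no Cd3 UMIs in NK cells. Of these levels, only that of Ncr1 in T cells was free to vary. T cells numbered 3781 in untimed SOX17KO and 3430 in untimed Control. There were 121 T cells in SOX17KO and 69 in Control at 1 week, and 682 in SOX17KO and 1943 in Control at 2 weeks. The 1-week pair thus stands apart: it held 17 and 4 Cd8a T cells and entered no test within that class. Between 3 and 20 Sox17 UMIs were found in the kept cells of the SOX17KO libraries and 7 to 10 in those of the Control libraries, but the sort removes epithelium, so this checks nothing in the tumour cells. Summed epithelial markers reached at most 26.3 CPM and macrophage markers at most 45.1 CPM in any lymphoid class, whereas plasma cell markers reached 118 CPM and dendritic cell markers 1167 CPM, both in innate lymphoid cells. Plasma cell markers in all T cells stood at 75.5 CPM in untimed SOX17KO and 12.1 CPM in untimed Control. Levels are CPM of the summed UMIs of a class in a library, log2 ratios and fold changes are SOX17KO over Control unless stated, and bracketed intervals are 95% and cover counting error only. CPM are not corrected for gene length, so levels are compared between classes and libraries and not between genes. A sum cannot tell fewer expressing cells from less RNA per cell.

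Itgae was highest in Foxp3 T cells, the regulatory class, and next to absent from NK cells. In Foxp3 T cells it stood at 230.1, 140.0 and 289 CPM in the untimed, 1-week and 2-week SOX17KO libraries, against 269 and 212 CPM in the untimed and 2-week Control libraries. Gamma-delta T cells, which carry the other form of T cell receptor, held 76.2, 57.9 and 134 CPM in those SOX17KO libraries, against 140.0 and 75.4 CPM in the Control libraries. The level in Foxp3 T cells was the higher in each of these 5 libraries, although the 1-week SOX17KO value of Foxp3 and the untimed Control value of gamma-delta T cells were both 140.0 CPM. Conventional Cd4 T cells (Cd4 and no Foxp3) held 2.40 and 4.02 CPM in the untimed and 2-week SOX17KO libraries, against 70.4 and 11.5 CPM in Control. NK cells had 0 to 2.07 CPM in the 5 libraries with at least 20 of them, with 1 UMI in each of the 2-week libraries and 0 in the others, and B cells had at most 3.33 CPM.

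Class was tested within the library, on 2 classes summed in the same 4 libraries (the untimed and 2-week pairs), with edgeR's quasi-likelihood test and Benjamini-Hochberg adjustment over all genes. In Foxp3 over conventional Cd4 T cells, 4 of the 8 genes that passed the expression filter (Cdh1 did not) were called, against 7.9% of 8566 genes. Itgae rose by a log2 fold change of 3.71 ± 0.49 (SE, adjusted p = 0.000221) and its partner Itgb7 by 1.78 ± 0.24 (adjusted p = 0.000287). Itga1 changed by -2.74 ± 0.44 (adjusted p = 0.00102) and Cxcr6 by -2.08 ± 0.28 (adjusted p = 0.000238). The regulatory class had more RNA for both chains of the E-cadherin receptor than conventional Cd4 T cells of the same tumours. It had less RNA for the collagen and CXCL16 receptors. Protein was not measured.

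In gamma-delta over conventional Cd4 T cells 3 of the 8 genes tested, again without Cdh1, were called, against 8.93% of 8402 genes. These were Itgae at 2.66 ± 0.55 (adjusted p = 0.0122), Itgb7 at 1.38 ± 0.25 (adjusted p = 0.00524) and Cd69 at 1.12 ± 0.18 (adjusted p = 0.00304). The first 2 calls were lost when the library was not kept as a block, with adjusted p = 0.132 for Itgae and 0.0624 for Itgb7. Between Cd8a and conventional Cd4 T cells the log2 difference of Itgae was 1.17 (adjusted p = 0.17), which missed the threshold.

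Cd8a T cells had less Itgae in the untimed SOX17KO library than in its Control, and more at 2 weeks. The levels were 46.1 CPM (449 UMIs) in SOX17KO and 92.4 CPM (646 UMIs) in Control in the untimed pair, and 24.0 CPM (50 UMIs) and 14.2 CPM (109 UMIs) at 2 weeks. The log2 ratio was -1.0 [-1.18, -0.83] in the untimed and 0.75 [0.24, 1.25] in the 2-week pair. Both SOX17KO values lay between the Control values, so the genotypes overlapped. With every cell thinned to 1000 UMIs, Itgae was found in 3.46% [2.79, 4.24] of SOX17KO and 7.85% [6.30, 9.66] of Control Cd8a T cells in the untimed pair. At 2 weeks the shares were 2.70% [1.09, 5.49] in SOX17KO and 1.98% [1.19, 3.07] in Control. Cells with fewer UMIs were left out, which kept 2598 SOX17KO and 1044 Control cells of the untimed pair and 259 SOX17KO and 961 Control cells at 2 weeks. The same share was 0 to 0.457% in B cells and 0 to 0.14% in macrophages, which should lack the gene. The intervals of the 2 genotypes did not overlap in the untimed pair and did at 2 weeks.

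In conventional Cd4 T cells Itgae was lower in SOX17KO in both tested pairs, with log2 ratios of -4.88 [-7.17, -3.30] untimed and -1.51 [-3.24, -0.12] at 2 weeks. The untimed library of SOX17KO held 3 UMIs in 365 cells, against 160 UMIs in 498 Control cells, and the 2-week libraries held 5 and 28 UMIs. Over both pairs the log2 fold change was -3.34 ± 0.67 (adjusted p = 0.191), so it missed the threshold, and 0 of the 8 genes tested were called, against 0.0425% of 9418 genes. This fit rests on 2 pairs and 1 residual degree of freedom. Gates that demanded 3 Cd3 UMIs gave -3.17 with adjusted p = 0.000141 for Itgae. A missing Foxp3 UMI does not show that a cell lacks Foxp3. In conventional Cd4 T cells, summed regulatory markers (Foxp3, Il2ra, Ikzf2, Ctla4) stood at 1113 CPM in SOX17KO and 2413 CPM in Control untimed. At 2 weeks the sums were 1701 and 1684 CPM. Foxp3 T cells numbered 23 in SOX17KO and 399 in Control untimed, and 47 and 90 at 2 weeks. The part of regulatory cells in the difference of Itgae was not tested.

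**Figure D1:**
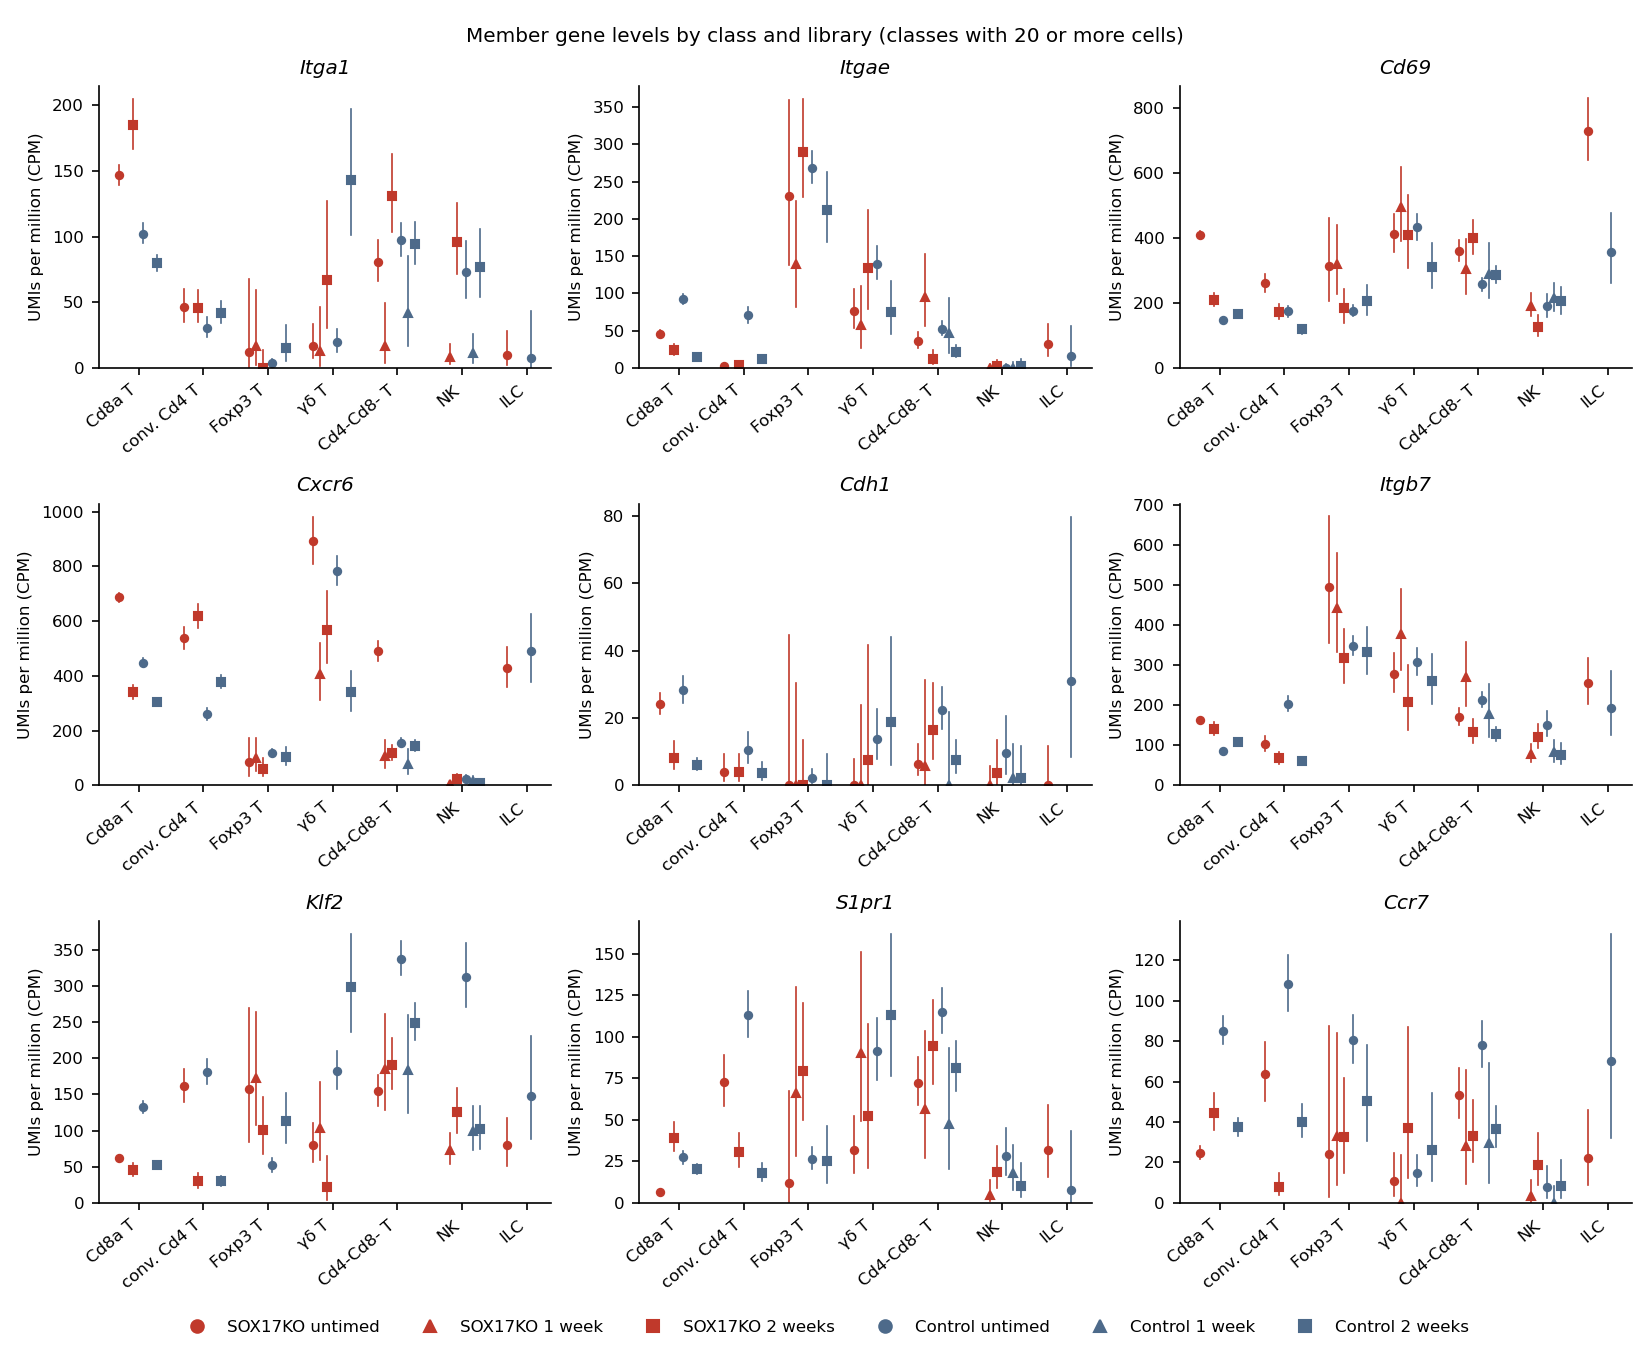
Level (linear scale) of the 9 genes (CPM of summed UMIs, 1 panel per gene) by lymphocyte class, with SOX17KO left of Control and the collections as separate marks; bars are 95% counting intervals of 1 library. Itgae stands highest in Foxp3 T cells, at 140.0 to 289 CPM in libraries with at least 20 of them, and at most 2.07 CPM in NK cells.

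Itgb7, which pairs with Itgae and with the gut-homing chain Itga4, was present in every class. Foxp3 T cells held 497, 445 and 318 CPM in the untimed, 1-week and 2-week SOX17KO libraries, against 349 and 333 CPM in the untimed and 2-week Control libraries. Cd8a T cells held 162 CPM in SOX17KO and 85.7 CPM in Control in the untimed pair, and 141 and 108 CPM at 2 weeks. The SOX17KO values were both above the Control values in Cd8a T cells, and the fitted log2 fold change was 0.71 ± 0.25 (adjusted p = 0.558). Conventional Cd4 T cells showed 103 CPM in SOX17KO and 204 CPM in Control in the untimed pair, against 67.6 and 59.9 CPM at 2 weeks, with no common direction.

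Cdh1, the gene of the ligand E-cadherin, was itself detected in Cd8a T cells. It stood at 24.1 CPM (235 UMIs) in SOX17KO and 28.2 CPM (197 UMIs) in Control in the untimed pair, and at 8.15 CPM (17 UMIs) and 6.13 CPM (47 UMIs) at 2 weeks. The untimed pair was above the 2-week pair in both genotypes, and within a pair the genotypes were close, with log2 ratios of -0.22 and 0.41. All T cells of the 6 libraries together held 6 UMIs each of the keratins Krt8 and Krt19, 37 of Krt18 and 219 of Epcam, and the T cell gate itself allows at most 1 UMI of the epithelial list per cell. Cd8a over conventional Cd4 T cells, Cdh1 rose by 1.47 ± 0.30 (adjusted p = 0.0222), and without the untimed Control library the value was 1.48 with adjusted p = 0.103. Without the library block it was 1.58 with adjusted p = 0.323. NK cells had 0 to 9.48 CPM of Cdh1. Macrophages had 15.5 CPM in SOX17KO and 15.7 CPM in Control at 1 week, so the gene was not restricted to lymphocytes.

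Itga1 was high in Cd8a and Cd4-Cd8- T cells, lower in conventional Cd4 T cells and low in Foxp3 T cells. In Cd8a T cells it stood at 147 CPM in SOX17KO and 102 CPM in Control in the untimed pair, and at 185 and 79.7 CPM at 2 weeks. Both SOX17KO values were above both Control values. Cd4-Cd8- T cells, which hold no UMI of Cd4, Cd8a, Cd8b1, Foxp3, Trdc or Trdv4, had 80.7 CPM in SOX17KO and 97.5 CPM in Control in the untimed pair, 16.9 CPM (37 cells) and 41.4 CPM (26 cells) at 1 week, and 131 and 94.2 CPM at 2 weeks. Conventional Cd4 T cells held 46.3 and 30.3 CPM in SOX17KO and Control of the untimed pair, and 45.9 and 41.8 CPM at 2 weeks. Foxp3 T cells ranged from 0 to 16.5 CPM over the 3 SOX17KO libraries, against 3.39 and 15.2 CPM in the untimed and 2-week Control libraries. Gamma-delta T cells held 67.1 CPM in SOX17KO and 143 CPM in Control at 2 weeks but 16.9 and 19.3 CPM in the untimed pair.

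Of the 9 genes, 2 were called in Cd8a over conventional Cd4 T cells, against 8.87% of 9772 genes: Cdh1, given above, and Itga1 at 1.57 ± 0.17 (adjusted p = 0.00157). NK cells and Cd8a T cells did not differ past the threshold in Itga1, with a log2 difference of -0.48 (adjusted p = 0.0882).

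Across all T cells Itga1 was higher in SOX17KO in each of the 3 collections. The levels were 122 CPM in SOX17KO and 64.5 CPM in Control in the untimed pair, 28.9 and 18.0 CPM at 1 week, and 126 and 73.1 CPM at 2 weeks. The log2 ratios were 0.93 [0.82, 1.03], 0.69 [-0.56, 2.08] and 0.78 [0.63, 0.93], so the 1-week interval included 0. The fitted log2 fold change was 0.88 ± 0.18, with adjusted p = 0.444 over all genes tested. The Cd8a class, high in Itga1, was 2615 of the 3781 T cells in untimed SOX17KO but 1088 of the 3430 in Control. At 2 weeks it was 260 of 682 in SOX17KO against 962 of 1943 in Control. Log2 ratios within Cd8a T cells were 0.52 untimed and 1.21 at 2 weeks. Those of Cd4-Cd8- T cells were -0.27 untimed, -1.29 at 1 week and 0.47 at 2 weeks. Gamma-delta T cells were lower in SOX17KO in both pairs given above. The part of make-up in the all-T result was not tested. In all T cells 0 of the 9 genes were called, against 0% of 12091 genes, although 1073 genes had an unadjusted p under 0.05 and DESeq2 called 14 and limma-voom 0. In Cd8a T cells 0 of the 9 were called too, against 0% of 11707 genes, with 1014 at an unadjusted p under 0.05, 12 called by DESeq2 and 0 by limma-voom.

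**Figure D2:**
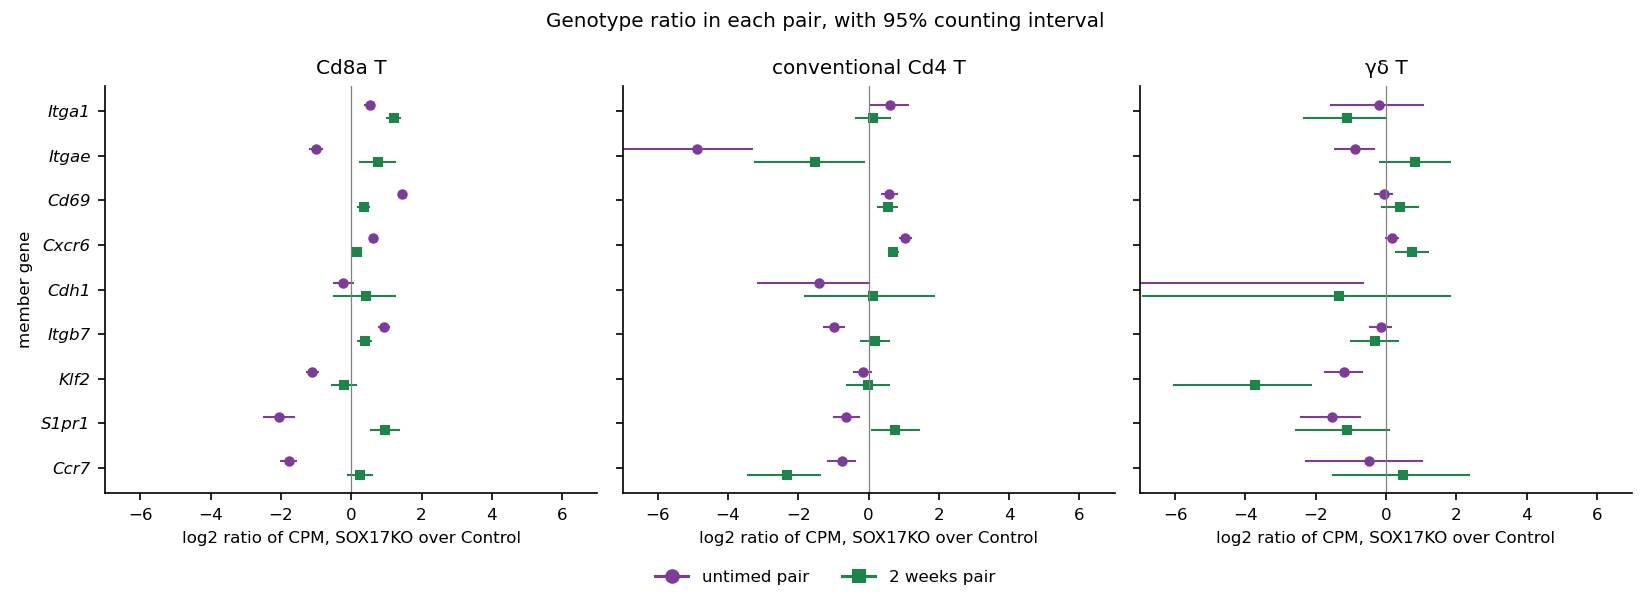
Log2 ratio of CPM, SOX17KO over Control, for the 9 genes in Cd8a, conventional Cd4 and gamma-delta T cells, in the untimed and the 2-week pair, with 95% counting intervals; values right of 0 are higher in SOX17KO. Lines that reach the left edge run beyond it, and Cdh1 of untimed gamma-delta T cells, with 0 UMIs in SOX17KO, has no point. Itgae and S1pr1 in Cd8a T cells lie on opposite sides of 0 in the 2 pairs, while Klf2 in gamma-delta T cells lies left of 0 in both.

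Itga1 also differed between collections. In NK cells it stood at 95.6 CPM (51 UMIs) in SOX17KO and 76.6 CPM (37 UMIs) in Control at 2 weeks, against 7.93 CPM (5 UMIs) and 11.1 CPM (5 UMIs) at 1 week. The untimed Control library held 72.6 CPM (46 UMIs) in 148 NK cells, and the untimed SOX17KO library held 0 UMIs in 10 NK cells. Both 2-week values were above both 1-week values. The fitted difference, 2 weeks over 1 week, was 3.0 ± 0.43 (adjusted p = 0.00045, edgeR, on 2 pairs), and it was the only one of the 4 genes tested to be called, against 12.4% of 6401 genes. This test was added after the levels had been seen.

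Because the NK gate can hold innate lymphoid cells of type 1, which share Ncr1 but lack Eomes, NK cells were split by an Eomes UMI. Cells with Eomes held 82.7 CPM of Itga1 (32 UMIs) in SOX17KO and 29.95 CPM (9 UMIs) in Control at 2 weeks. At 1 week they held 8.66 CPM (4 UMIs) and 3.52 CPM (1 UMI). Cells without an Eomes UMI held 129.7 CPM (19 UMIs) and 154 CPM (28 UMIs) at 2 weeks. At 1 week they held 5.92 CPM (1 UMI) and 24.1 CPM (4 UMIs). The 2-week values were higher on both sides of the split, but each 1-week value rests on at most 4 UMIs. A missing Eomes UMI does not show that a cell lacks Eomes, and the collection cannot be told apart from the day of processing.

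In all T cells 2 of the 9 genes were called between 2 weeks and 1 week, against 0.814% of 12782 genes. Itga1 stood at 126 CPM in SOX17KO and 73.1 CPM in Control at 2 weeks, against 28.9 and 18.0 CPM at 1 week (log2 fold change 2.06 ± 0.27, adjusted p = 0.0176). Itgb7 stood at 131 and 113 CPM at 2 weeks, against 282 and 285 CPM at 1 week, a change of -1.27 ± 0.19 (adjusted p = 0.0277). Both calls were lost with limma-voom (adjusted p = 0.106 for Itga1 and 0.0642 for Itgb7). The make-up of the T cells differed as well, since Cd8a T cells were 260 of 682 and 962 of 1943 T cells at 2 weeks but 17 of 121 and 4 of 69 at 1 week, and its part in the result was not tested. Within Cd4-Cd8- T cells, the class that could be tested on its own, Itga1 changed by 1.82 (adjusted p = 0.102) and Itgae by -2.16 (adjusted p = 0.0804), and 0 of the 9 were called against 0.833% of 8768 genes.

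**Figure D3:**
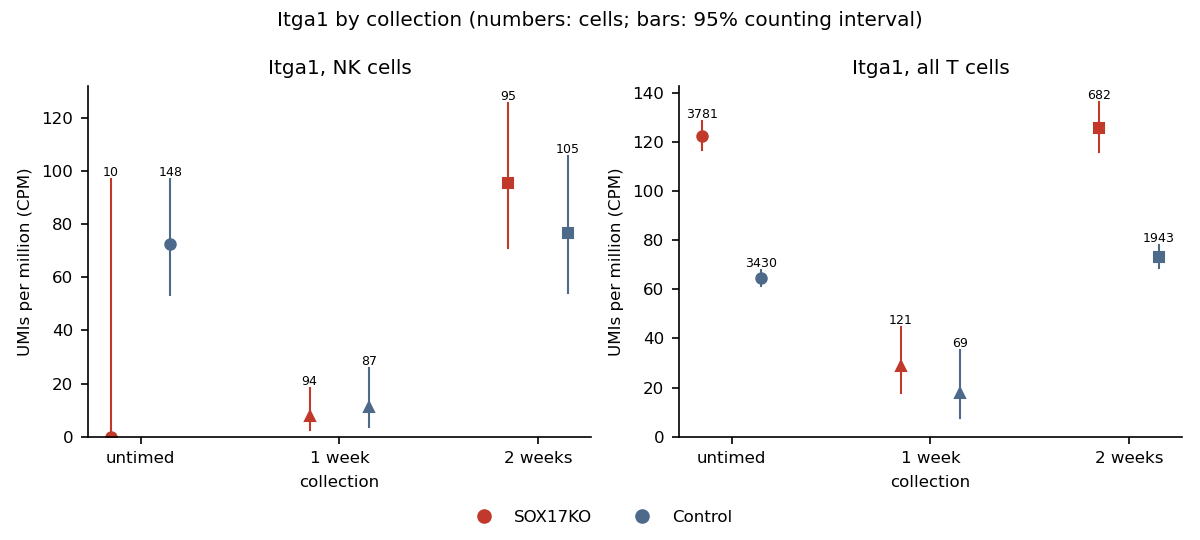
Itga1 level (CPM of summed UMIs) by collection in NK cells and in all T cells, SOX17KO left of Control within a collection, with 95% counting intervals of 1 library and the number of cells above each. In NK cells the 2-week libraries stand at 95.6 and 76.6 CPM and the 1-week libraries at 7.93 and 11.1 CPM.

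Cd69, the antagonist of S1PR1 and an early activation gene, was found in every lymphoid class. Summed over all T cells it stood at 383 CPM in SOX17KO and 172 CPM in Control in the untimed pair, 335 and 267 CPM at 1 week, and 226 and 175 CPM at 2 weeks. SOX17KO was the higher in each pair, with log2 ratios of 1.15, 0.33 and 0.37, but the 2-week SOX17KO library lay below the 1-week Control library. The fitted log2 fold change was 0.66 ± 0.23 (adjusted p = 0.496). For Cd8a T cells it was 0.96 ± 0.35 (adjusted p = 0.558), on 408 CPM in SOX17KO and 149 CPM in Control in the untimed pair and 210.4 and 165 CPM at 2 weeks. NK cells gave values in the other direction in both pairs that could be fitted, with 192 CPM of Cd69 in SOX17KO against 216 CPM in Control at 1 week and 127 CPM in SOX17KO against 205 CPM in Control at 2 weeks, and the fitted value was -0.44 ± 0.23 (adjusted p = 0.991).

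Tissue digestion is known to induce the genes of the dissociation response. Like Cd69, their summed level was higher in SOX17KO in both pairs of Cd8a and conventional Cd4 T cells. Their summed level in Cd8a T cells was 6559 CPM in SOX17KO and 3069 CPM in Control in the untimed pair, and 2642 and 2416 CPM at 2 weeks. In conventional Cd4 T cells the sums were 7069 and 4292 CPM, and 4723 and 3935 CPM. Their part in the difference of Cd69 was not tested. Gamma-delta T cells had sums of 6971 CPM in SOX17KO and 6797 CPM in Control in the untimed pair, and there Cd69 stood at 413 and 433 CPM. At 2 weeks Cd69 in gamma-delta T cells stood at 410 CPM in SOX17KO and 309 CPM in Control. Sums for the other classes and pairs are not given here.

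Cxcr6 was abundant in Cd8a, conventional Cd4 and gamma-delta T cells, lower in Foxp3 T cells (61.5 to 98.8 CPM over the 3 SOX17KO libraries, against 104 and 119.5 CPM in the 2-week and untimed Control libraries) and scarce in NK cells. In conventional Cd4 T cells it stood at 537 CPM in SOX17KO and 261 CPM in Control in the untimed pair, and at 619 and 379 CPM at 2 weeks. Both SOX17KO values were above both Control values, with log2 ratios of 1.04 and 0.71, and the fitted value was 0.92 ± 0.20 (adjusted p = 0.244). Levels in Cd8a T cells were 687 and 448 CPM in the untimed pair and 339 and 304 CPM at 2 weeks, again higher in SOX17KO within each pair but overlapping between pairs. Cd4-Cd8- T cells held 489.9 CPM in SOX17KO and 156 CPM in Control in the untimed pair, but 118 and 145 CPM at 2 weeks. NK cells held 6.34 to 24.4 CPM in the libraries with at least 20 cells, against 304 to 687 CPM in Cd8a T cells. Of the 9 genes 5 were called in NK over Cd8a T cells (untimed Control and both 2-week libraries), against 24% of 8911 genes, and Cxcr6 had the smallest adjusted p, at -4.17 ± 0.20 (adjusted p = 1.04e-07). Its ligand gene Cxcl16 was found in macrophages, at 211 CPM in SOX17KO and 43.2 CPM in Control in the untimed pair, 173 and 203 CPM at 1 week, and 349 and 283 CPM at 2 weeks, and at most 5.78 CPM in T cells.

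The other calls in NK over Cd8a T cells were Itgae at -5.13 ± 0.63 (adjusted p = 0.000118), Ccr7 at -2.23 ± 0.36 (adjusted p = 0.000879), Cdh1 at -1.41 ± 0.46 (adjusted p = 0.0447) and Klf2 at 1.26 ± 0.16 (adjusted p = 0.000119). The call of Klf2 was lost without cells that held a UMI of the cycling genes Mki67 or Top2a (0.49, adjusted p = 0.102) and without the library block (1.27, adjusted p = 0.138). That of Cdh1 was lost without either 2-week library, with adjusted p = 0.0752 without SOX17KO and 0.104 without Control, and also with DESeq2 (adjusted p = 0.319), with limma-voom (adjusted p = 0.0873) and without the block (adjusted p = 0.33).

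**Figure D4:**
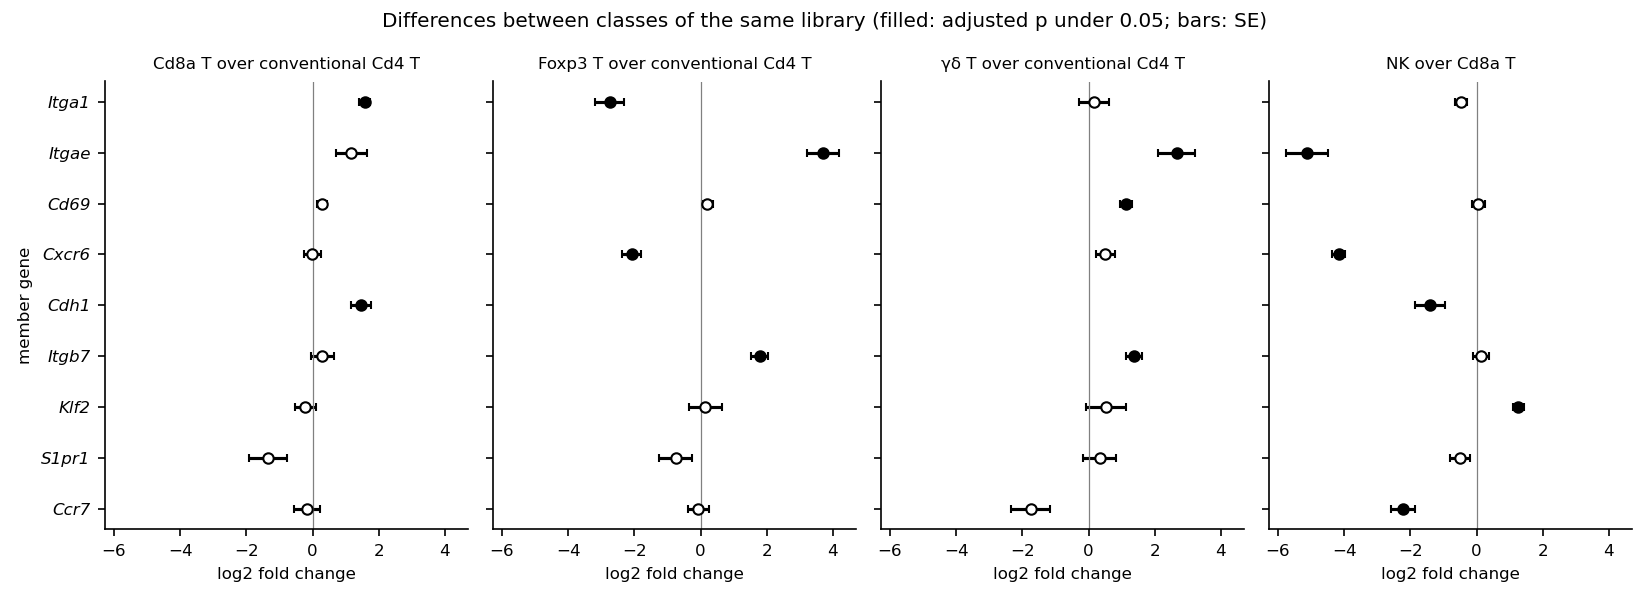
Log2 fold change of the 9 genes between lymphocyte classes of the same libraries (edgeR, with SE), the first-named class over the second. Itgae stands at 3.71 in Foxp3 over conventional Cd4 T cells and at -5.13 in NK over Cd8a T cells, and Cxcr6 is below 0 in both.

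S1pr1, the exit receptor, was lower in SOX17KO than in Control in Cd8a T cells of the untimed pair and higher at 2 weeks. The levels were 6.57 CPM (64 UMIs) in SOX17KO and 27.3 CPM (191 UMIs) in Control in the untimed pair, and 39.3 CPM (82 UMIs) and 20.2 CPM (155 UMIs) at 2 weeks. The log2 ratios were -2.06 [-2.49, -1.64] and 0.96 [0.55, 1.35]. Both Control values lay between the SOX17KO values. Thinned to 1000 UMIs, 0.385% [0.185, 0.707] of SOX17KO and 2.30% [1.48, 3.40] of Control Cd8a T cells held an S1pr1 UMI in the untimed pair. At 2 weeks 4.63% [2.42, 7.95] of SOX17KO and 2.19% [1.36, 3.32] of Control cells did. In macrophages the share was 0 to 1.54%, and that of Cd8a T cells in the untimed SOX17KO library lay within this range.

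Conventional Cd4 T cells had the same pattern of sign, with 72.6 CPM of S1pr1 in SOX17KO and 113 CPM in Control in the untimed pair and 30.6 and 18.0 CPM at 2 weeks (log2 ratios -0.64 and 0.76). Gamma-delta T cells were lower in SOX17KO in both pairs, with 31.8 CPM against 91.2 CPM untimed and 52.2 CPM against 113 CPM at 2 weeks. The fitted value there was -1.38 ± 0.40 (adjusted p = 0.247).

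Klf2, the activator of S1pr1, was the one gene of the 9 called between genotypes, and in gamma-delta T cells alone. It stood at 80.4 CPM (38 UMIs) in SOX17KO and 182 CPM (198 UMIs) in Control in the untimed pair, and at 22.4 CPM (3 UMIs) and 298 CPM (79 UMIs) at 2 weeks. Both SOX17KO values lay below both Control values, with log2 ratios of -1.18 [-1.72, -0.67] and -3.74 [-6.05, -2.14]. The fitted log2 fold change was -1.88 ± 0.40 (adjusted p = 0.0433), and 1 of the 7 genes tested was called, against 0.332% of 5726 genes. The fit has 2 pairs and 1 residual degree of freedom, and the call was lost with DESeq2 (-2.16, adjusted p = 1), with limma-voom (-1.56, adjusted p = 0.139) and without doublet removal (-1.89, adjusted p = 0.062).

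The gamma-delta cells of the 2 genotypes also differed in other measures. At 2 weeks they held 7.45 CPM of Eomes in SOX17KO and 83.0 CPM in Control, and in the untimed pair 2.12 CPM in SOX17KO and 9.21 CPM in Control. Cells with a cycling UMI were 11.5% of 131 in SOX17KO and 7.5% of 293 in Control in the untimed pair. At 2 weeks they were 37.5% of 24 in SOX17KO and 17.9% of 56 in Control. Their part in the difference of Klf2 was not tested. In all T cells Klf2 was not called between genotypes, with 84.8 CPM in SOX17KO and 134 CPM in Control untimed, 127 and 117 CPM at 1 week, and 66.9 and 81.7 CPM at 2 weeks. Levels in Cd8a T cells were 61.6 and 133 CPM untimed and 45.5 and 52.2 CPM at 2 weeks (-0.62 ± 0.25, adjusted p = 0.575). Cd4-Cd8- T cells held the most Klf2 among T cells in untimed Control, 338 CPM, against 154 CPM in untimed SOX17KO. At 2 weeks they held 190.5 CPM in SOX17KO and 249 CPM in Control (-0.59 ± 0.25, adjusted p = 0.999 over the 3 pairs). Foxp3 T cells held 157 CPM (13 UMIs) of Klf2 in SOX17KO and 52.1 CPM (123 UMIs) in Control untimed, and 101 and 114 CPM at 2 weeks. The fitted value there was 0.55 (edgeR, adjusted p = 0.933).

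Ccr7, the receptor for entry into lymph nodes and lymph, was low in tumour T cells compared with B cells, which held 154 to 416 CPM. In Cd8a T cells it stood at 24.7 CPM in SOX17KO and 85.2 CPM in Control in the untimed pair, and at 44.6 and 37.4 CPM at 2 weeks, so the genotypes overlapped. In conventional Cd4 T cells it was lower in SOX17KO within both pairs, at 63.9 and 108 CPM untimed and 8.05 and 40.2 CPM at 2 weeks. The fitted value there was -1.26 ± 0.36 (adjusted p = 0.347). The remaining classes added no call between genotypes: 0 of the 6 genes tested in Foxp3 T cells, against 0.0366% of 5463 genes, 0 of the 8 in Cd4-Cd8- T cells, against 0% of 8196 genes, and 0 of the 4 in NK cells, against 0.0156% of 6401 genes. At an unadjusted p under 0.05 there were 336, 350 and 296 genes in these 3 fits, and in Cd4-Cd8- T cells DESeq2 and limma-voom also called 0.

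Innate lymphoid cells were numerous enough for a level only in the untimed pair, with 101 cells in SOX17KO and 44 in Control, and no test was made. They held 731 CPM of Cd69 in SOX17KO and 358 CPM in Control, 428 and 490.1 CPM of Cxcr6, 255 and 194 CPM of Itgb7, and 79.8 and 148 CPM of Klf2. Itgae stood at 31.9 and 15.6 CPM and S1pr1 at 31.9 and 7.78 CPM. Itga1 was low, at 9.57 and 7.78 CPM (3 UMIs and 1 UMI), against 72.6 CPM in the NK cells of the untimed Control library. Summed dendritic cell markers, which include the MHC class II genes H2-Aa and H2-Ab1, stood in these cells at 98.9 CPM in SOX17KO and 1167 CPM in Control, and plasma cell markers at 118 and 7.78 CPM. Their part in these levels was not tested.

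How the 9 genes were combined within cells was read from splits of the same class in the same library. Cd8a T cells were first split by an Itgae UMI, so that Itgae itself is not a result. Cdh1, the gene of its ligand, was higher in cells with Itgae in all 4 libraries. It stood at 58.8 CPM (79 UMIs) with Itgae and 18.6 CPM (156 UMIs) without it in untimed SOX17KO, 51.2 and 19.7 CPM in untimed Control, 9.99 and 7.95 CPM in SOX17KO at 2 weeks, and 9.87 and 5.81 CPM in Control at 2 weeks. The fitted log2 difference was 1.36 ± 0.19 (adjusted p = 0.0135), and 1 of the 8 genes was called, against 0.14% of 9311 genes. At 2 weeks only 2 and 6 Cdh1 UMIs lay in cells with Itgae, so the difference rests on the untimed pair, and the call was lost when any of 3 libraries was left out, with adjusted p = 0.19 without untimed SOX17KO, 0.316 without untimed Control and 0.0719 without 2-week Control. Cells with Itgae held more UMIs, with medians of 3973 against 3114 in untimed SOX17KO and 5320.5 against 5299.5 in untimed Control. At 2 weeks the medians were 6521.5 against 6395.5 in SOX17KO and 6886 against 5977 in Control. Cycling cells were, in the same order, 19.8% against 13.5%, 34.0% against 27.5%, 39.3% against 48.3% and 55.4% against 51.7%. The part of depth and cycling in the result was not tested.

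The exit genes missed the threshold in this split, with S1pr1 at -1.29 ± 0.33 (adjusted p = 0.25) and Klf2 at -1.02 ± 0.24 (adjusted p = 0.18). Without the untimed SOX17KO library S1pr1 was called at -1.70 (adjusted p = 0.0383) and Klf2 at -1.60 (adjusted p = 0.00186). In all T cells split the same way, Itgb7 was higher with Itgae in all 5 libraries with enough cells. Its levels with and without Itgae were 230.2 and 156 CPM in untimed SOX17KO, 199 and 156 CPM in untimed Control, 388 and 256 CPM in SOX17KO at 1 week, 249.9 and 119 CPM in SOX17KO at 2 weeks, and 204 and 105 CPM in Control at 2 weeks. The log2 difference was 0.64 ± 0.12 (adjusted p = 0.0219), and 1 of the 8 genes was called, against 1.15% of 10241 genes. It was lost without 1-week SOX17KO (adjusted p = 0.0519) and without 2-week Control (adjusted p = 0.177). Median UMIs with and without Itgae were 3968 and 3110 in untimed SOX17KO and 5510 and 4226 in untimed Control. They were 4953 and 5003 in 1-week SOX17KO, 5446 and 5523 in 2-week SOX17KO and 4791 and 4912 in 2-week Control. The part of depth in the result was not tested. Foxp3 T cells, high in both genes, were 2.39% of T cells with Itgae and 0.411% of those without in untimed SOX17KO, and 22.8% and 7.12% in untimed Control. They were 34.7% of T cells with Itgae and 3.46% of those without in 2-week SOX17KO, and 27.5% and 2.83% in 2-week Control, and their part in the result was not tested.

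Cells with an S1pr1 UMI differed more widely from those without. This split was chosen after the levels had been seen. Of the 8 other genes, 5 were called in Cd8a T cells, against 11.4% of 8752 genes, with Klf2 and Ccr7 higher and Cxcr6, Itga1 and Itgae lower in the cells with S1pr1. Klf2 stood at 319 CPM with S1pr1 and 55.4 CPM without in untimed SOX17KO, 472 and 85.5 CPM in untimed Control, 113 and 33.4 CPM in SOX17KO at 2 weeks, and 179 and 38.4 CPM in Control at 2 weeks. It was higher with S1pr1 in 4 of 4 libraries, with a log2 difference of 2.32 ± 0.15 (adjusted p = 9.96e-11). Ccr7 rose by 1.72 ± 0.28 (adjusted p = 0.000114).

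Cxcr6 stood at 367 CPM with S1pr1 and 695 CPM without in untimed SOX17KO, 132 and 492 CPM in untimed Control, 188 and 367 CPM in SOX17KO at 2 weeks, and 192 and 316 CPM in Control at 2 weeks. It was lower with S1pr1 in 4 of 4 libraries, at -1.13 ± 0.15 (adjusted p = 1.26e-05). Itga1 was lower too, at -0.99 ± 0.17 (adjusted p = 0.000246), and so was Itgae, at -1.28 ± 0.26 (adjusted p = 0.00141). Without untimed Control the call of Itgae was lost (adjusted p = 0.0716). The levels of Cd69, whose protein removes S1PR1 from the surface, did not pass the test (0.28, adjusted p = 0.373), nor did those of Itgb7 (0.44, adjusted p = 0.0645) and Cdh1 (0.06, adjusted p = 0.945). Cycling cells were fewer among those with S1pr1, at 9.76% against 14.2% in untimed SOX17KO, 15.8% against 30.7% in untimed Control, 26.7% against 51.6% in 2-week SOX17KO and 29.9% against 54.6% in 2-week Control, and their part in the result was not tested. The groups with S1pr1 held 41, 120, 45 and 107 cells in these libraries. Median UMIs with and without S1pr1 were, in the same order, 4245 and 3166.5, 5981 and 5170, 5722 and 6454, and 5804 and 6052. The part of depth in the result was not tested.

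In all T cells 3 of the 8 were called in that split, against 7.43% of 10142 genes: Klf2 at 2.03 ± 0.24 (adjusted p = 0.000365), Cxcr6 at -1.15 ± 0.13 (adjusted p = 0.000237) and Itga1 at -0.69 ± 0.16 (adjusted p = 0.0193). The call of Itga1 was lost without untimed Control (adjusted p = 0.0598) and without 2-week SOX17KO (adjusted p = 0.0941). Ccr7 missed the threshold there (1.21 ± 0.37, adjusted p = 0.0658). Cd8a T cells were 26.5% of T cells with S1pr1 and 71.0% of those without in untimed SOX17KO, and 20.8% and 33.9% in untimed Control. The shares were 36.3% and 38.5% in 2-week SOX17KO and 39.5% and 51.1% in 2-week Control, but 20.7% and 12.0% in 1-week SOX17KO. In the same order, Cd4-Cd8- T cells were 30.3% and 11.7%, 27.0% and 18.7%, 28.2% and 15.9%, 33.2% and 17.5%, and 17.2% and 34.8%. The part of this make-up in the result was not tested.

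**Figure D5:**
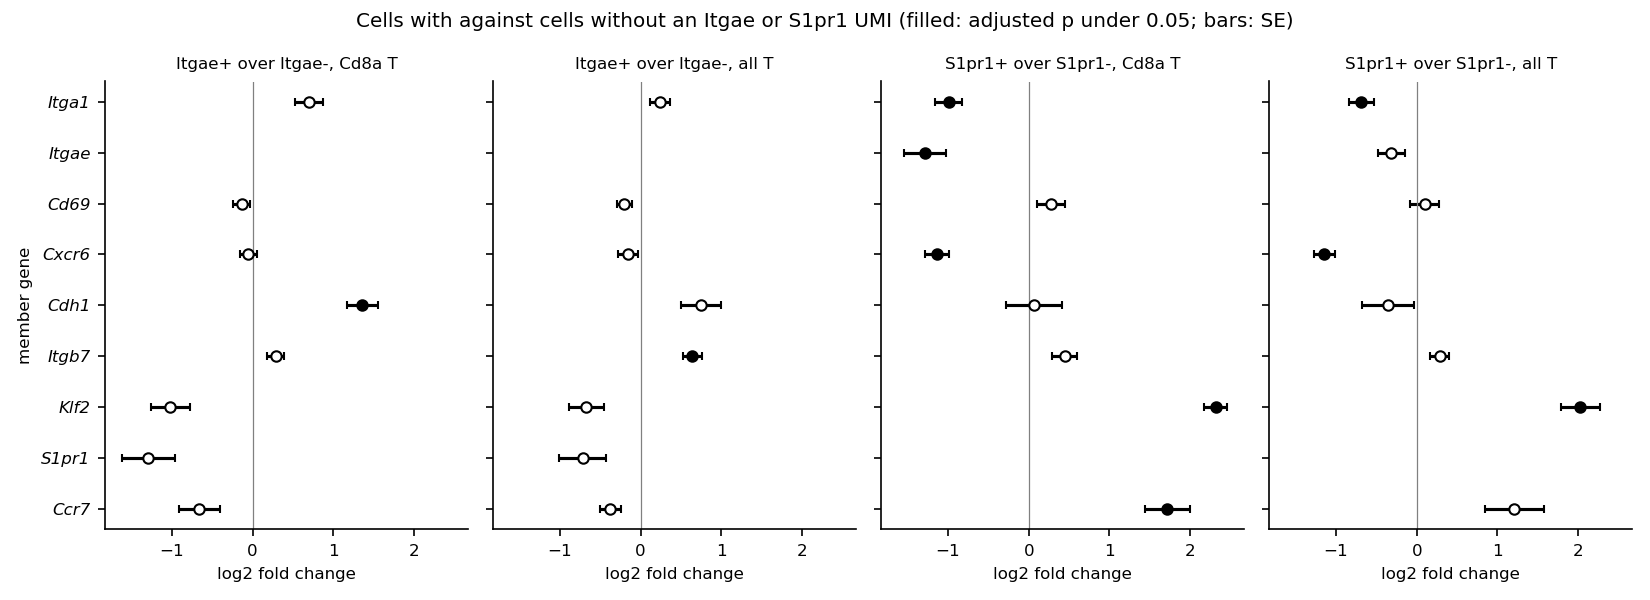
Log2 difference of the other 8 genes between cells with and without a UMI of Itgae and of S1pr1, in Cd8a T cells and in all T cells (edgeR, with SE). Klf2 stands at 2.32 and Cxcr6 at -1.13 in Cd8a T cells with S1pr1, and Cdh1 at 1.36 in Cd8a T cells with Itgae.

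Other genes of the same 2 programmes were read from a residency list of 24 and a recirculation list of 20 genes. In Cd8a T cells with S1pr1, 8 of 16 tested recirculation genes rose, against 4.89% of all genes, and 1 fell, against 6.51%. Klf3 rose by 2.53 and the naive and memory factors Tcf7 and Lef1 by 2.12 and 1.66, while the receptor Cx3cr1 changed by -1.85. Of 23 tested residency genes 2 rose, Ahr by 0.88 and Tgfbr1 by 0.70, and 11 fell, Litaf by -1.30, Cd244a by -1.18 and Bhlhe40 by -1.04 among them. The median log2 difference was 0.60 over the recirculation and -0.31 over the residency list. With Itgae, 2 of 16 recirculation genes fell in Cd8a T cells, Ly6c2 by -1.24 and Lef1 by -0.81, against 0.0537% of all genes. Of 23 residency genes 1 rose, P2rx7 by 1.12, against 0.0859% of all genes.

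Between classes the lists did not divide along the same line. In NK over Cd8a T cells, 11 of 23 residency genes rose and 4 fell, and 9 of 16 recirculation genes rose and 4 fell, against 12.4% and 11.6% of all genes. S1pr5, the exit receptor of NK cells, rose by 4.82, whereas Cx3cr1 changed by -3.79 and Icos by -2.85. In Foxp3 over conventional Cd4 T cells, 2 of 21 residency genes rose and 9 fell, with Itgb1 at -1.91 and Bhlhe40 at -1.81. There 1 of 15 recirculation genes rose, Ccr2 by 2.12, and 6 fell, with Tcf7 at -4.53, against 3.41% and 4.49% of all genes. In gamma-delta over conventional Cd4 T cells, 0 of 22 residency genes rose and 4 fell (Bhlhe40 at -2.17), and 4 of 15 recirculation genes rose and 2 fell (Ly6c2 at 3.21 and Cx3cr1 at -1.71), against 4.31% and 4.62% of all genes. In Cd8a over conventional Cd4 T cells 3 of 23 residency genes rose, Cd244a by 3.17, Xcl1 by 2.86 and Runx3 by 0.57, against 3.1% of all genes, and 2 fell, Ahr by -1.58 and Icos by -0.69, against 5.77%. There 1 of 15 recirculation genes rose, Ly6c2 by 3.45, and 1 fell, Ccr2 by -1.05. Between genotypes 0 genes of either list were called in any of the 7 fits, against 0% to 0.332% of all genes. The lists thus did not stand apart from other genes there, and their medians were from -0.21 to 0.35.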

How the data were processed

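The deposited matrices hold raw UMI counts per gene and cell barcode, and per the submitters' processing notes they were made with Cell Ranger 6.0.1 on mm10, while the file headers name version 7.0.1. Whether intronic reads were counted is stated neither in the labels nor in the headers, and the deposited barcodes are those already called as cells. Cells with under 200 genes or over 10% mitochondrial UMIs were removed, as were barcodes with the highest simulated-doublet score (0.8% per 1000 barcodes, 76 to 438 per library).

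T cells needed 2 Cd3d, Cd3e or Cd3g UMIs and at most 1 UMI of any other lineage. They were then divided by Cd8a or Cd8b1, Cd4, Foxp3, and 2 Trdc or Trdv4 UMIs (gamma-delta), and cells with none of these are the Cd4-Cd8- class. NK cells held no Cd3, Trac or Il7r UMI, at least 1 Ncr1 UMI and 2 NK marker UMIs. Innate lymphoid cells held Il7r and 2 further UMIs of their list and no UMI of Cd3, Trac, Ncr1, Eomes, Cd4, Cd8a, Cd8b1 or Foxp3. Cells with markers of several T classes count in all T cells and in no class.

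UMIs were summed per library and class, and CPM are these sums scaled by the class total. Sums of at least 20 cells were tested with edgeR 4.0.16 (quasi-likelihood, TMM, its expression filter) in R 4.3.3, with collection and genotype as terms. Class and split comparisons kept the library as a block, as both sums come from it. Gate genes were left out of the class comparisons, and the gene of the split out of the split comparisons, after the adjustment. The adjusted p threshold was 0.05, by Benjamini-Hochberg over all genes tested. SEs were derived from the F statistic. DESeq2 1.42.0, limma-voom (limma 3.58.1), other scaling, filters, gates and left-out libraries or pairs were alternatives. The scripts were tested on simulated counts. Each genotype and collection is 1 library, so the collections, 3 or 2 per class, are the only replicates of the genotype difference. Its p-values set the fitted difference against its spread between them, which edgeR moderates with the spread of the other genes tested. A p-value therefore does not rest on the gene's own spread alone. Within a pair no test was made, and intervals are exact (Poisson, conditional binomial or Clopper-Pearson) and cover counting error only. Gene positions are those of GENCODE M21.

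The 9 genes and the lists were chosen with earlier results of these data known. Each of the 9 is named, but levels are not given for every gene in every class. Of the lists, up to 8 called genes per comparison, by size, may be named. Values of 2 further genes are not reported here. The split by S1pr1 and the NK comparison of 2 weeks with 1 week were chosen after seeing the data, as were the alternatives without cycling or mixed-marker cells.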

Additional observations from a re-analysis of the deposited data

Results flagged for a closer look

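Of the 9 genes, Itgae and S1pr1 had genotype differences of opposite sign in the untimed and the 2-week pair, with counting intervals that excluded 0 in both. Each pair is 1 library per genotype, so the difference between the pairs was not tested. Itgae, the CD103 chain, had a log2 ratio (SOX17KO over Control) in Cd8a T cells of -1.0 in the untimed pair and 0.75 at 2 weeks. In all T cells the ratios of Itgae were -1.47 untimed and 0.76 at 2 weeks, with 42.9 CPM in SOX17KO and 119 CPM in Control untimed and 39.0 CPM in SOX17KO and 23.0 CPM in Control at 2 weeks. Foxp3 T cells, the class with the most Itgae, were 23 of 3781 T cells in SOX17KO and 399 of 3430 in Control untimed. At 2 weeks they were 47 of 682 and 90 of 1943, and their part in the ratios of all T cells was not tested. S1pr1, the exit receptor, had ratios of -2.06 untimed and 0.96 at 2 weeks in Cd8a T cells, -1.07 and 0.61 in all T cells, and -0.64 and 0.76 in conventional Cd4 T cells. Cells with a cycling UMI were 14.1% of Cd8a T cells in SOX17KO and 29.0% in Control in the untimed pair, and 47.3% in SOX17KO and 51.9% in Control at 2 weeks. Their part in these differences was not tested. No group held enough libraries to look for a library far from the others of its group.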

How the results depend on the processing

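Over all alternatives 1537 values of the 9 genes stayed on the same side of the threshold, 49 crossed it to be called and 37 lost their call. No value called in either setting changed sign, but 74 uncalled values, of 30 results, did. Among these were S1pr1 in Foxp3 over conventional Cd4 T cells, 0.37 without untimed Control against -0.75, and the genotype difference of Cxcr6 in Cd4-Cd8- T cells, -0.12 without the untimed pair against 0.69. Counts of called genes moved by more than 1.5 times as follows. Between genotypes in all T cells 0 genes were called, 390 with no expression filter, 14 with DESeq2 and 2 to 38 without 1 of the 3 pairs. In Cd8a T cells the count of 0 became 491 with no filter and 12 with DESeq2. In conventional Cd4 T cells 4 became 9 with DESeq2 size factors, 251 with no filter, 27 with DESeq2, 0 without the collection as replicate block, 185 at 3 and 10 at 1 Cd3 UMIs, and 2 without doublet removal, at 5% mitochondrial UMIs and without cycling cells. In Foxp3 T cells 2 became 24 with DESeq2 size factors and with no filter, 1 with limma-voom and from 10 cells, 0 without the block, 39 at 3 Cd3 UMIs and 19 without doublet removal. In gamma-delta T cells 19 became 30 with DESeq2 size factors, 53 with no filter, 2 with DESeq2, 0 without the block, 9 without doublet removal and 41 at 5% mitochondrial UMIs. Klf2 there had a log2 fold change of -2.0 without the block (adjusted p = 1). In Cd4-Cd8- T cells 0 became 63 with no filter and 0 to 20 without 1 pair, and in NK cells 1 became 3 with no filter and 0 with DESeq2, with limma-voom, without the block, without cycling cells and from 10 cells. Where only 2 pairs were fitted, leaving 1 out leaves no residual degrees of freedom, and no value was computed.

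Between 2 weeks and 1 week, 104 genes in all T cells became 885 with no filter, 458 with DESeq2, 12 with limma-voom and 32 without the genotype as replicate block. In Cd4-Cd8- T cells 73 became 514 with no filter, 158 with DESeq2 and 150 with limma-voom, and in NK cells 796 became 137 with DESeq2. For Cd8a over conventional Cd4 T cells 867 became 2113 with no filter, 193 without the library block and 353 to 1211 without 1 library. For Foxp3 over conventional Cd4 T cells 677 became 334 without the block and 417 to 846 without 1 library, and for gamma-delta over conventional Cd4 T cells 750 became 1430 with no filter and 450 to 720 without 1 library. For NK over Cd8a T cells 2141 became 1377 with DESeq2, 1327 without the block, 1203 without cycling cells, 1042 from 10 cells and 1477 to 2092 without 1 library. With Itgae, 13 genes in Cd8a T cells became 123 with no filter, 0 without the block, 8 at 5% mitochondrial UMIs and 1 to 30 without 1 library, and 118 in all T cells became 556 with no filter, 203 with DESeq2, 0 without the block, 203 without mixed-marker T cells and 19 to 216 without 1 library. With S1pr1, 754 in all T cells became 1336 with no filter, 46 without the block and 276 to 1145 without 1 library, and 998 in Cd8a T cells became 607 with DESeq2, 33 without the block and 352 to 1228 without 1 library. All 5 calls of the 9 genes in the S1pr1 split of Cd8a T cells were lost without the library block, with adjusted p = 0.0852 for Klf2 the lowest. The cause of these changes was not tested.

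Shares of Cd8a T cells with an Itgae UMI were 10.6% in SOX17KO and 23.5% in Control untimed without thinning and 7.06% and 14.1% thinned to 2000 UMIs, and at 2 weeks 10.8% and 5.82% without thinning. For S1pr1 they were 1.57% and 11.03% untimed without thinning and 1.09% and 5.73% at 2000 UMIs, and at 2 weeks 17.3% and 11.1% without thinning and 8.49% and 5.01% at 2000 UMIs. The number of T cells limits the 1-week pair most, with 17 and 4 Cd8a T cells, and low counts limit values resting on under 10 UMIs.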

Other observations

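Over the 31 sums of a class in a library with at least 20 cells, the genes whose log2 CPM (prior count 1) followed Itgae most closely, among 6312 genes with a mean of at least 20 CPM, were Ankrd6 (r = 0.86), Arnt2 (0.85), Sntb1 (0.84), Slc43a2 (0.83) and Lamc1 (0.83). Itgb7, the partner chain of Itgae, had r = 0.77. S1pr1 was followed most closely by Sh3bp5 (0.75), Actn1 (0.66), Galnt10 (0.64), Msn (0.64) and Cmah (0.62), and Klf2 had r = 0.42 with S1pr1. The sums share libraries and depth, and the values are a description without a test.

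Ligand genes of these receptors were read in the sorted cells as well. Ccl19 and Ccl21a, the ligands of CCR7, and Madcam1, a ligand of the ITGB7 integrins, were at most 1.27 CPM in T cells, NK cells and macrophages of any library. Tgfb1, the cytokine known to induce Itgae, stood in T cells at 225 CPM in SOX17KO and 244 CPM in Control in the untimed pair, 178 and 148 CPM at 1 week, and 195 and 179 CPM at 2 weeks.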
